A study of Saccharomyces cerevisiae with 6 samples.

Results

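The Hsp70 family genes described here are SSA1, SSA2, SSA3, SSA4, SSB1, SSB2, SSC1, KAR2, SSE1 and SSE2 of S. cerevisiae BY4741. They were taken by systematic name, and all 10 were found among the 6572 features of the BY4741 count tables, 5898 of which matched a gene of the S288C reference R64. RNA sequencing covered 2 strains, each grown for 6 h to mid-exponential phase in a medium that the labels call ILM. BY4741, a haploid laboratory strain of mating type a with deletions in its HIS3, LEU2, MET17 and URA3 genes, gave 3 libraries. S. boulardii Biocodex, a probiotic yeast, gave 3 more, but its 5482 features share 0 identifiers with those of BY4741 and name no gene, so the family was read in BY4741 and no level was compared between strains. The strains' growth conditions do not differ in the labels, and no untreated or heat-shocked culture was analysed here, so the values are levels and not responses.

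Hsp70 proteins are ATP-driven chaperones that bind short hydrophobic stretches of unfolded polypeptides and let them go again. J-domain proteins stimulate their ATPase and nucleotide exchange factors reset them. In yeast the Ssa proteins work in the cytosol and nucleus, the Ssb proteins on ribosomes with emerging chains, Ssc1 in the mitochondrial matrix and Kar2, the yeast BiP, in the endoplasmic reticulum. Sse1 and Sse2 belong to the Hsp110 branch and act as nucleotide exchange factors for the other cytosolic members. SSA1 and SSA2 are known as the main cytosolic genes of growing cells, and SSA3 and SSA4 as genes induced by stress and, for SSA3, by entry into stationary phase.

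In BY4741, 18707708 reads were counted in replicate 1, 5181546 in replicate 2 and 4581414 in replicate 3, and 137964, 32583 and 33520 of them lay on the family. The deleted genes LEU2, URA3 and MET17 had 0 reads in each BY4741 library, and HIS3, of which the strain's allele lacks a part, had 925, 196 and 285. Of 6 genes of a cells, MFA1 and MFA2 stood at 1298 ± 82.7 and 1224 ± 213 CPM per kb of coding length and exceeded the median gene in each library, and STE2 at 50.8 ± 14.1, BAR1 at 34.5 ± 18.2, STE6 at 12.96 ± 5.90 and ASG7 at 10.9 ± 7.11 did not (SD, n = 3 each). Of 4 genes of alpha cells, SAG1 stood at 22.03 ± 1.72, above STE6 and ASG7 in the mean, the alpha factor gene MF(ALPHA)1 at 13.3 ± 4.21 and STE3 at 3.95 ± 2.07 CPM per kb (SD, n = 3 each), and MF(ALPHA)2 had 16, 15 and 0 reads. Whether each library had its own culture is not stated in the labels, so p-values measure the spread between these samples only, which may be technical. No pair of libraries looked like 1 library deposited again, since chi-square per degree of freedom over genes was at least 46.7. The values are CPM, counts scaled to a fixed library total, a share of the counted reads. They show neither cell number nor total RNA per cell. In these bulk samples fewer cells with a transcript and less of it per cell cannot be told apart.

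The coding sequences of the closest members bear on each count of SSA1, SSA2, SSB1 and SSB2, because a read that fits both copies cannot be placed by its sequence. SSA1 and SSA2 were identical at 96.8% of 1920 aligned bases, with 61 mismatches and a longest identical stretch of 383 bases. SSB1 and SSB2 were identical at 97.4% of 1842 aligned bases, with 48 mismatches and a longest identical stretch of 563 bases. The next closest pair, SSA3 and SSA4, shared 77.6% of 1927 aligned bases and no identical stretch above 17 bases. The stretches below are the 60 bases of each close pair that differ most, read from R64 along the coding strand, and capitals mark the bases at which the copies differ. The SSA1 stretch lies at chrI:139712-139771, the SSA2 stretch at chrXII:95766-95825, both on the minus strand, and both cover bases 1661 to 1720 of the coding sequence.
SSA1: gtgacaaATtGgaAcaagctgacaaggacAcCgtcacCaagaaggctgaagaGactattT
SSA2: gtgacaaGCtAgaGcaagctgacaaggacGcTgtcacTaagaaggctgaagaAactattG
The SSB1 stretch lies at chrIV:45312-45371 and the SSB2 stretch at chrXIV:253306-253365, both on the plus strand, and both cover bases 1248 to 1307.
SSB1: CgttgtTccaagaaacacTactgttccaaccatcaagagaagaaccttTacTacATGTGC
SSB2: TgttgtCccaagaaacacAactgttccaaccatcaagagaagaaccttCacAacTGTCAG
Even these stretches hold 9 differences for SSA1 and SSA2 and 11 for SSB1 and SSB2 within 60 bases.

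Of all 50-base stretches (50-mers) of the coding sequence, 57.9% in SSA1, 58.2% in SSA2 and 43.2% in each of SSB1 and SSB2 occurred again elsewhere in the R64 genome. The other 6 members had 0 repeated 50-mers, as did 93.1% of the matched genes. The repeated stretches filled most of the middle of SSA1 and SSA2 and a long block in the middle of SSB1 and SSB2, while the last part of each coding sequence was largely distinct. How the authors' counting treated reads with several matches is not given in the sources used here, so the levels of these 4 genes are uncertain in a way that those of the other 6 are not.

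**Figure D1:**
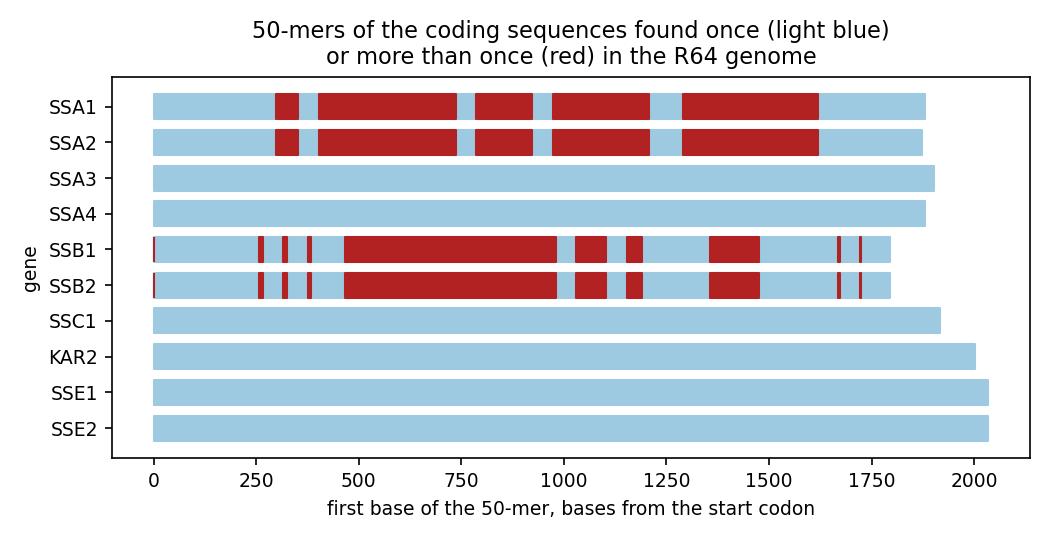
Each bar is the coding sequence of a member from its start codon (x axis, position of the first base of each 50-mer). Light blue marks 50-mers found once in the R64 genome and red marks those found more than once: red covers 57.9% of SSA1 and 43.2% of SSB1, and none of SSA3, SSA4, SSC1, KAR2, SSE1 or SSE2.

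Together the 10 genes took 0.737%, 0.629% and 0.732% of the counted reads in replicates 1, 2 and 3, a mean of 0.699% ± 0.0611 (SD, n = 3). Each member exceeded the median of all matched genes in each library, both in CPM and in CPM per kb of coding length. That median was 45.9 CPM per kb, and 42.6% of all matched genes exceeded it in each of the 3 libraries (42.4% for CPM). Members are compared with each other per kb of coding length below, although their coding lengths differ little, from 1842 to 2082 bases.

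SSA1 (YAL005C, chrI:139503-141431, minus strand) was the highest gene of the cytosolic SSA group. It stood at 1152, 1158 and 1213 CPM in replicates 1, 2 and 3, a mean of 1174 ± 33.8 CPM (SD, n = 3), rank 101 of the 5898 matched genes. The 3 libraries lay within 1.05-fold of each other, the narrowest range of the family. The expected spread from counting alone was 1.14% of the mean, against an observed 2.88%.

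SSA2 (YLL024C, chrXII:95566-97485, minus strand), whose protein is nearly the same as that of SSA1, stood at 420.4, 470.1 and 383 CPM, a mean of 424 ± 43.8 CPM (SD, n = 3). Replicate 2 was highest and replicate 3 lowest, and no SSA2 value came near an SSA1 value. Per kb, SSA2 stood at 221 ± 22.8 and SSA1 at 609 ± 17.5 CPM per kb (SD, n = 3 each), a log2 ratio of SSA2 over SSA1 of -1.47 ± 0.18 (SD, n = 3). SSA2 was the lower gene in 3 of 3 libraries, at 0.317 to 0.408 of SSA1. Both genes have nearly the same length and share of repeated 50-mers, so scaling to unique 50-mers could hardly change the log2 ratio, which was -1.46. The effect of reads that fit both copies on this ratio was not tested.

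SSA3 (YBL075C, chrII:84499-86448, minus strand), the gene known from stationary phase, stood at 828, 608 and 470.4 CPM, a mean of 635 ± 181 CPM (SD, n = 3). It was the most variable member, with replicate 1 at 1.76-fold the level of replicate 3. Its rank by mean CPM was 249. SSA4 (YER103W, chrV:364589-366517, plus strand), a gene strongly induced by heat, was the lowest member at 148, 106 and 131 CPM, a mean of 129 ± 21.1 CPM (SD, n = 3), rank 1609. SSA4 reads were the fewest of the family in each library, with 550 in replicate 2, for which the exact 95% Poisson interval runs from 97.5 to 115 CPM and covers counting error only. The log2 ratio of SSA4 over SSA3 per kb was -2.27 ± 0.38 (SD, n = 3), with SSA4 lower in 3 of 3 libraries, a 4.81-fold difference between the stress-induced genes of the group.

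The SSA genes taken by pairs were set against each other per kb. SSA1 exceeded SSA4 with a log2 ratio of 3.20 ± 0.24, a fold of 9.22, and SSA2 exceeded SSA4 with a log2 ratio of 1.74 ± 0.36, a fold of 3.34 (SD, n = 3 each). The sum of SSA1 and SSA2 exceeded the sum of SSA3 and SSA4 by 2.16-fold, with log2 ratios of 0.70, 1.21 and 1.42 in replicates 1, 2 and 3. The lowest of these came from replicate 1, where SSA3 was highest. Per 1000 unique 50-mers, which counts the distinct parts of SSA1 and SSA2 alone and assumes that no read of the repeated parts was counted, the fold was 5.13 for the sums, 21.9 for SSA1 over SSA4 and 7.98 for SSA2 over SSA4. The direction was the same in 3 of 3 libraries under both measures. SSA3 and SSA4 have no repeated 50-mers, so the second measure could only enlarge these folds and was no test of the direction.

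SSB1 and SSB2, the ribosome-bound Hsp70 genes, had the highest mean levels per kb, but SSB1 was not told apart from SSA1, which was the higher of them in replicate 2 (600.5 CPM per kb for SSA1 and 476 for SSB1). SSB2 (YNL209W, chrXIV:252059-253900, plus strand) stood at 1618, 1167 and 1677 CPM in replicates 1, 2 and 3, a mean of 1487 ± 279 CPM (SD, n = 3), rank 70 of the matched genes. SSB1 (YDL229W, chrIV:44065-45906, plus strand) stood at 1281, 878 and 1425 CPM, a mean of 1194 ± 284 CPM (SD, n = 3), rank 98. For both genes replicate 2 was the low library, and the values of the genes overlapped when all libraries were pooled. Within each library, though, SSB2 was the higher gene, with a log2 ratio of SSB2 over SSB1 of 0.34, 0.41 and 0.23, a mean of 0.33 ± 0.09 (SD, n = 3) or 1.25-fold. Both coding sequences have the same length and the same number of unique 50-mers, so the length measures could not change that ratio. The count tables also list YDL228C, a frame on the strand opposite SSB1, and its bearing on the SSB1 count was not tested.

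**Figure D2:**
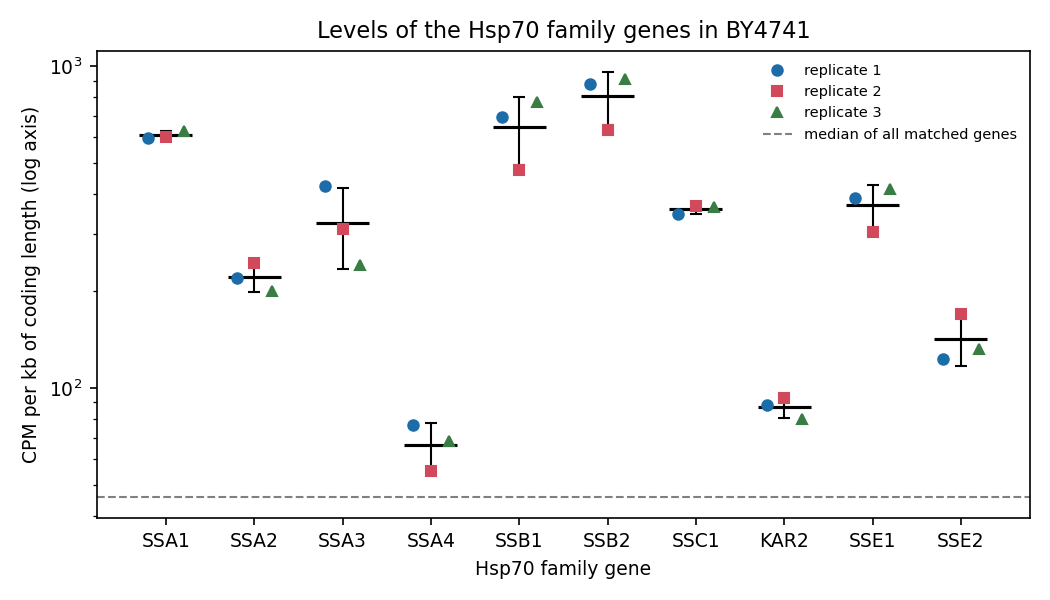
Level of each member in CPM per kb of coding length (y axis, log scale) in the 3 BY4741 libraries, with the mean (bar) and SD (whisker, n = 3); the dashed line is the median of all matched genes, 45.9 CPM per kb. SSB2 is highest at 807 and SSA4 lowest at 66.6 CPM per kb, and all points lie above the dashed line.

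SSC1 (YJR045C, chrX:519638-521602, minus strand), the motor of protein import into mitochondria and a matrix folding chaperone, stood at 680.2, 724 and 716 CPM, a mean of 707 ± 23.4 CPM (SD, n = 3), rank 211. KAR2 (YJL034W, chrX:381327-383375, plus strand), which folds and retains secretory proteins, stood at 181, 190.3 and 164 CPM, a mean of 179 ± 13.3 CPM (SD, n = 3), rank 1164. Both organelle genes varied little between libraries, at most 1.16-fold. Per kb, SSC1 exceeded KAR2 with log2 ratios of 1.97, 1.99 and 2.19, a mean of 2.05 ± 0.12 (SD, n = 3) or 4.13-fold. Neither gene has repeated 50-mers.

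SSE1 (YPL106C, chrXVI:350194-352275, minus strand), the main Hsp110 gene, stood at 810.3, 634 and 862 CPM, a mean of 769 ± 120 CPM (SD, n = 3), rank 193. SSE2 (YBR169C, chrII:573915-575996, minus strand), its stress-responsive paralog, stood at 257, 353 and 275 CPM, a mean of 295 ± 51.3 CPM (SD, n = 3), rank 656. The library that was lowest for SSE1, replicate 2, was highest for SSE2. The log2 ratio of SSE1 over SSE2 was 1.66, 0.84 and 1.65 in replicates 1, 2 and 3, a mean of 1.38 ± 0.47 (SD, n = 3) or 2.61-fold. Their coding sequences, both 2082 bases long, were identical at 71.9% of aligned bases, so their counts do not share reads by sequence.

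The balance between compartments was read from sums per kb. SSB1 and SSB2 made up 39.8% ± 5.17 of the family's CPM per kb, SSA1 to SSA4 33.8% ± 3.71, SSE1 and SSE2 14.1% ± 0.636, SSC1 9.96% ± 1.201 and KAR2 2.42% ± 0.387 (SD, n = 3 each). The log2 ratio of SSB1 and SSB2 over SSA1 to SSA4 was 0.26, -0.13 and 0.57, so that the SSB sum was higher in 2 of 3 libraries and lower in replicate 2. Its mean of 0.23 was smaller than its SD of 0.35 (n = 3). Per 1000 unique 50-mers that ratio was 0.10 ± 0.34 (SD, n = 3), with replicate 2 at -0.28. By that measure SSB1 and SSB2 made up 43.3% ± 5.45 of the family, SSA1 to SSA4 40.4% ± 4.35, SSE1 and SSE2 8.67% ± 0.344, SSC1 6.15% ± 0.739 and KAR2 1.49% ± 0.244 (SD, n = 3 each). SSE1 and SSE2 together stood below SSA1 to SSA4, at a log2 ratio of -1.26 ± 0.17 (SD, n = 3), and at -2.22 ± 0.14 per 1000 unique 50-mers. In all, 10 ratios were compared by an exact two-sided sign-flip permutation test, which with 3 libraries cannot go below p = 0.25. The p was 0.25 for the 9 ratios with the same direction in 3 of 3 libraries (adjusted p = 0.278, Benjamini-Hochberg) and 0.5 for SSB over SSA (adjusted p = 0.5), so none passed a threshold of 0.05.

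**Figure D3:**
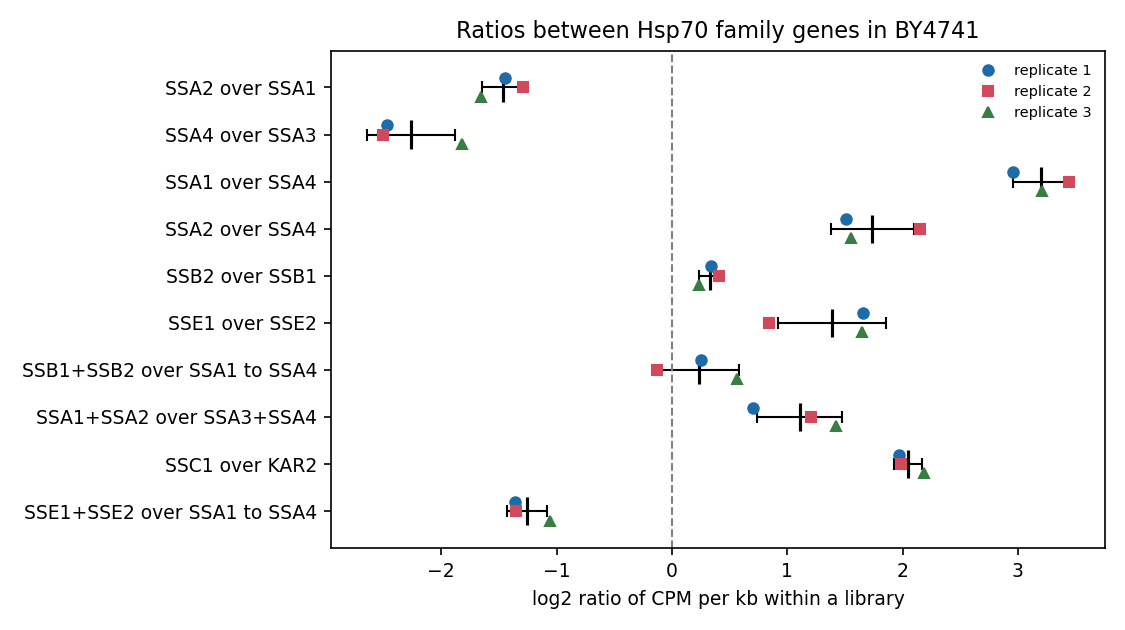
Log2 ratio of CPM per kb (x axis) within each BY4741 library for the 10 ratios, with the mean (tick) and SD (whisker, n = 3). The points of SSB1+SSB2 over SSA1 to SSA4 fall on both sides of 0, from -0.13 to 0.57, and those of the other 9 ratios stay on 1 side.

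In order of mean CPM per kb, the members ran SSB2, SSB1, SSA1, SSE1, SSC1, SSA3, SSA2, SSE2, KAR2 and SSA4. Neighbours were told apart where their ranges of mean ± SD did not overlap and the order held in 3 of 3 libraries. That was so for 4 of the 9 neighbouring pairs, SSA1 above SSE1 (609 ± 17.5 and 369 ± 57.5 CPM per kb), SSA2 above SSE2 (221 ± 22.8 and 142 ± 24.6), SSE2 above KAR2 (142 ± 24.6 and 87.2 ± 6.49) and KAR2 above SSA4 (87.2 ± 6.49 and 66.6 ± 10.9; SD, n = 3 each). The neighbours not told apart were SSB2 and SSB1, SSB1 and SSA1, SSE1 and SSC1, SSC1 and SSA3, and SSA3 and SSA2. Members further apart in the order could still meet the rule. SSB2 (807 ± 151 CPM per kb) did so above SSA1, and SSE1 and SSC1 (360 ± 11.9) did so above SSA2 (SD, n = 3 each). Per 1000 unique 50-mers SSA1 moved to the first place at 1483 ± 42.7 and SSA2 to the fourth at 542 ± 55.9 CPM (SD, n = 3 each), and 7 members changed place. SSB2 came next after SSA1 at 1461 ± 274 CPM (SD, n = 3), and by the rule these genes were not told apart. Per 1000 unique 75-mers SSB2 stood above SSA1.

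The members did not spread between libraries in the same way. Each library was set against the mean of the other 2 on the scale of log2 of CPM plus 0.5. None of the 10 members passed 2-fold in any library (0 of 10), and 19.0% of the 5108 matched genes of at least 10 CPM did. All 10 members had at least 100 mean CPM, and the share past 2-fold among genes of that level was not taken. The highest library exceeded the lowest by over 1.5-fold in 2 of 10 members, SSA3 and SSB1, and in 32.2% of the 2023 genes of at least 100 CPM. The median coefficient of variation of those genes was 16.2%. SSA1 at 2.88%, SSC1 at 3.31%, KAR2 at 7.45%, SSA2 at 10.3% and SSE1 at 15.6% lay below it. SSA4 at 16.4%, SSE2 at 17.4%, SSB2 at 18.8%, SSB1 at 23.8% and SSA3 at 28.4% lay above.

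In replicate 2, SSB1 deviated by -0.62, SSB2 by -0.50, SSE1 by -0.40 and SSA4 by -0.39, while SSE2 deviated by 0.41 and SSA2 by 0.23. The 5 ribosome-associated genes were mixed in the same library. SSZ1, an Hsp70 gene of the ribosome-associated complex, deviated by -0.79 and EGD1 by -0.51, while ZUO1, the partner of SSZ1 in that complex, deviated by -0.06, EGD2 by -0.0042 and BTT1, with 14, 32 and 24 reads, by 1.32. Cytosolic ribosomal protein genes moved the same way there, with a median deviation of -0.59 over 138 genes, 135 of them below 0. Their medians were 0.30 in replicate 1 and 0.31 in replicate 3, where SSB1 deviated by 0.20 and 0.43 and SSB2 by 0.21 and 0.29. The part of the shift of ribosomal protein genes in the SSB values was not tested. SSA3 followed another pattern, at 0.63 in replicate 1, -0.04 in replicate 2 and -0.59 in replicate 3. The median deviation of the members was 0.09, -0.03 and 0.05 in replicates 1, 2 and 3, beside -0.01, -0.01 and 0.07 over all genes of at least 10 CPM.

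**Figure D4:**
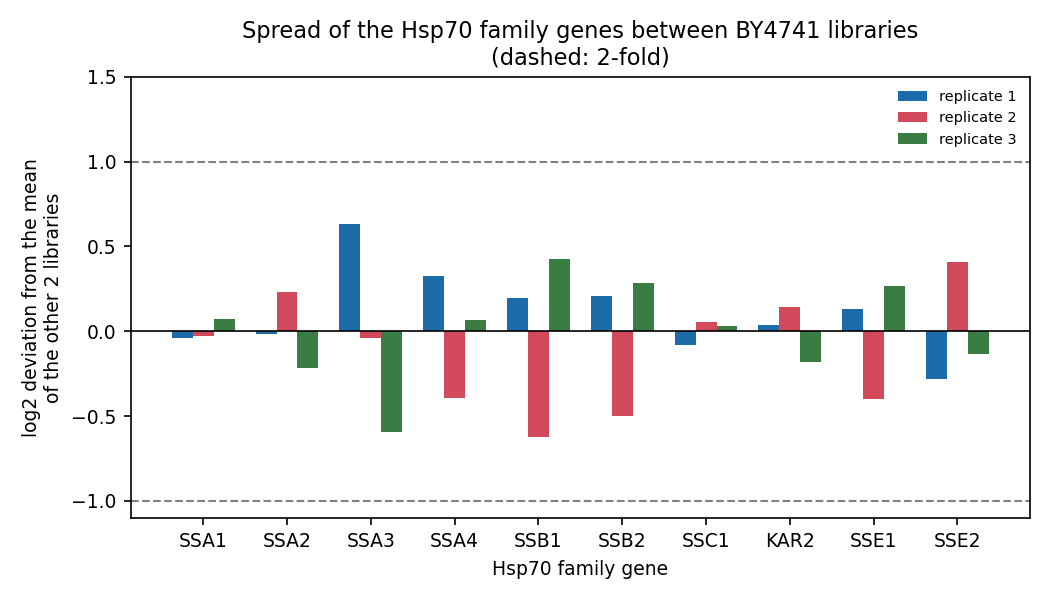
Deviation of each member in each BY4741 library from the mean of the other 2, in log2 of CPM plus 0.5 (y axis); dashed lines mark 2-fold. The bars of SSB1, SSB2, SSE1 and SSA4 point down in replicate 2, those of SSA3 run from 0.63 in replicate 1 to -0.59 in replicate 3, and no bar reaches a dashed line.

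Among genes of at least 100 CPM, those with the pattern over the 3 libraries most like that of a member were found by the root mean square difference of centred log2 values. For SSB2 these were RPP2B at a difference of 0.0053, RPL5 at 0.0097 and CRF1 at 0.012. For SSA4 they were NOT3, PXR1 and MTC5, at 0.0087 to 0.016. For SSC1 the closest were IST2 at 0.0030 and OCH1 at 0.0044, and for KAR2 they were ACT1, ARC1 and GPI16, at 0.0033 to 0.0083. With only 3 libraries and the closest genes picked from 2023, small differences come from the search itself. They describe these libraries alone and show no link between the genes.

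The partners of the family were read from lists. Of the 4 remaining Hsp70 genes, 1 exceeded the median gene per kb in each library, beside 42.6% of all matched genes. That gene was SSZ1 at 123 ± 37.0 CPM per kb (SD, n = 3). The mitochondrial SSQ1, which serves iron-sulfur cluster assembly, stood at 29.3 ± 7.11, ECM10, a paralog of SSC1, at 24.8 ± 6.92 and LHS1, the Hsp110-like gene of the endoplasmic reticulum, at 13.3 ± 5.84 CPM per kb (SD, n = 3 each). The family members shown above were each higher than these 3 genes in the mean.

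J-domain protein genes covered a wide range. Of 22, 10 exceeded the median gene in each library, a share near the 42.6% of all matched genes that did so, and their median of 58.5 CPM per kb lay beside 45.9 over all genes. SIS1, an essential partner of Ssa, was highest at 486 ± 52.1 CPM per kb (SD, n = 3). JJJ3, a gene of diphthamide synthesis, was lowest, with 42, 0 and 1 reads, and MDJ2 had 80, 57 and 0 reads. The nucleotide exchange factor genes were FES1 of the cytosol at 169.5 ± 46.4, MGE1 of the mitochondrial matrix at 131 ± 15.3, SNL1 at 36.6 ± 9.03 and SIL1 of the endoplasmic reticulum at 21.6 ± 13.1 CPM per kb (SD, n = 3 each). SSE1, at 369 CPM per kb, stood above each of them in the mean.

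Of 4 genes for tetratricopeptide proteins that bind Hsp70, SGT2 stood at 479 ± 41.0, STI1, which links Hsp70 to Hsp90, at 294 ± 44.6, the import receptor TOM70 at 64.05 ± 11.4 and CNS1 at 18.7 ± 10.1 CPM per kb (SD, n = 3 each). At the ribosome, where Ssb works, EGD2 and EGD1 of the nascent polypeptide-associated complex stood at 1145 ± 79.1 and 1073 ± 208 CPM per kb, ZUO1, the J-domain partner of Ssb, at 224 ± 6.80 and BTT1, a second beta subunit gene of that complex, at 9.01 ± 6.45 (SD, n = 3 each). In all, 4 of these 5 ribosome-associated genes, SSZ1 included, exceeded the median gene in each library, beside 42.6% of all matched genes. The mitochondrial import list, with which Ssc1 works, had 7 of 9 genes above that median in each library. Of the 9, TIM21 was lowest at 52.6 ± 18.0 and TIM23 highest at 349 ± 27.2 CPM per kb (SD, n = 3 each).

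Regulators and fellow targets were read in the same way. HSF1, the heat shock transcription factor, stood at 111 ± 25.2 CPM per kb, MSN4 and MSN2, factors of the general stress response, at 73.3 ± 8.24 and 31.0 ± 5.97, HAC1, the factor of the unfolded protein response, at 614 ± 78.3 and IRE1, its upstream sensor, at 23.2 ± 7.76 (SD, n = 3 each). HAC1 is controlled by splicing of its mRNA, which gene counts do not show. Of 17 other heat shock target genes, 15 exceeded the median gene in each library, beside 42.6% of all matched genes. The small heat shock gene HSP26 was highest at 2860 ± 655 CPM per kb (SD, n = 3). CUR1, a sorting factor for misfolded proteins, was lowest at 20.2 ± 11.4. Some genes of this list, among them STI1, SIS1 and FES1, also stand in the lists of partners above. In the endoplasmic reticulum list, 2 of 10 genes exceeded the median gene in each library, beside the same 42.6%. The disulfide isomerase gene PDI1 was highest there at 734 ± 125, with LHS1 lowest. The median of that list was 19.6 CPM per kb, against 87.2 ± 6.49 for KAR2.

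The sequences before the start codons were searched for 3 motifs known from these genes, to show which members carry them in R64. A heat shock element, the site of Hsf1, was taken as 3 units in the letters GAANNTTCNNGAA or, on the other strand, TTCNNGAANNTTC. A stress response element, the site of Msn2 and Msn4, was AGGGG or CCCCT. The core of the unfolded protein response element, the site of Hac1, was CAGCGTG or CACGCTG. Within 500 bases, 4 of 10 members held the heat shock element, SSA1, SSA2, SSE1 and KAR2, and 1.48% of 5896 genes did. The stress response element was found in 4 of 10 members, SSA1, SSA4, SSC1 and SSE2, and in 34.4% of all genes. KAR2 alone among the members held the unfolded protein response core, which occurs in 2.36% of all genes. Overlapping matches were counted as 1 cluster, of which SSA1 had 2 for the heat shock element, as did 0.0678% of all genes. SSA3, SSB1 and SSB2 held none of these letters.

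The stretches that hold these matches are given below from R64, along the coding strand, with the matched letters in capitals. SSA1 (chrI:141577-141805, minus strand) holds 2 clusters of the heat shock element and then 2 stress response elements, 374 to 146 bases before the start codon.
SSA1: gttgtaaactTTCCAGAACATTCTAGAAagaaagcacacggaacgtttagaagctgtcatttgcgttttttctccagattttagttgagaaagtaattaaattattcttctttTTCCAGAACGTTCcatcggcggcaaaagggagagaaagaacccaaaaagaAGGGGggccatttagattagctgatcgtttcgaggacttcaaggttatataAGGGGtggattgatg
SSA2 (chrXII:97696-97728, minus strand) and SSE1 (chrXVI:352439-352471, minus strand) hold 1 heat shock element each.
SSA2: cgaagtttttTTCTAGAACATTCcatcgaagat
SSE1: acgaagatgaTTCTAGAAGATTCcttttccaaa
KAR2 (chrX:381112-381183, plus strand) holds a cluster of overlapping heat shock elements followed by the unfolded protein response core.
KAR2: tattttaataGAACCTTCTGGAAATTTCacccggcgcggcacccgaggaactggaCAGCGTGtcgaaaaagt
SSA4 (chrV:364112-364171, plus strand) holds 2 of its 3 stress response elements in the stretch from 477 to 418 bases before the start codon.
SSA4: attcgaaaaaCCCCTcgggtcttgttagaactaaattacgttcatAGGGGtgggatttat
The members with a heat shock element by these letters ranged from 87.2 CPM per kb for KAR2 to 609 for SSA1, and the members without one from 66.6 for SSA4 to 807 for SSB2, so the ranges overlapped. A match is a run of letters and not a measured binding site, and variants of these motifs were not searched.

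**Figure D5:**
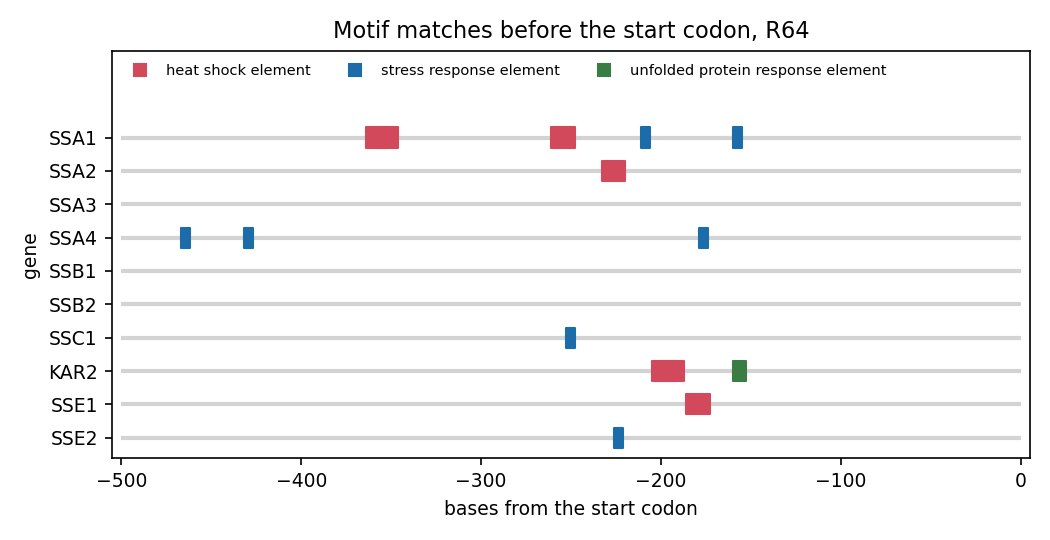
Matches of the 3 motifs in the 500 bases before each start codon (x axis, bases from the start codon). Heat shock elements (red) stand before SSA1, SSA2, KAR2 and SSE1, stress response elements (blue) before SSA1, SSA4, SSC1 and SSE2, and the unfolded protein response core (green) before KAR2.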

How the data were processed

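Each library's table holds the raw counts that the authors deposited, whole reads per feature and not normalized. The tools named are FastQC, TopHat, HTSeq and DESeq2, per the submitters' processing notes. Their versions and settings, the strand, the genome build and the treatment of reads with several matches were not stated there. Sample titles gave strain and replicate. Counts were divided by library totals (CPM) and by the coding length in RefSeq's R64, which also gave symbols, coordinates and sequences; the authors' build may differ, and 674 BY4741 features without an R64 gene were left out of ranks and medians. Ratios were taken within libraries. Coding sequences were aligned globally (Biopython 1.88; match 1, mismatch -1, gap opening -4, extension -1). The members and lists were chosen with earlier results of these data known. All 10 family members are named, and of the 9 lists of partners, regulators and fellow targets the highest and lowest gene, genes with 0 reads in a library and all genes of lists up to 5. Steps were tested on simulated data. Alternatives used edgeR 4.0.16 TMM factors and DESeq2 1.42.0 size factors (R 4.3.3). The limit behind 0 reads (3 reads) is 0.160 CPM in BY4741 replicate 1, 0.579 in replicate 2 and 0.655 in replicate 3; it covers counting error only, as reads are not independent molecules. The value of 1 gene named by the rule on like patterns is not reported here.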

Additional observations from a re-analysis of the deposited data

Results flagged for a closer look

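Reads were listed on open reading frames outside the matched genes that are known as dubious frames on the strand opposite SSA1 and SSB1. YAL004W, opposite SSA1, had 63, 26 and 10 reads in BY4741 replicates 1, 2 and 3, each above the 3 reads that a count of 0 allows, or 0.292%, 0.433% and 0.180% of the SSA1 reads. YDL228C, opposite SSB1, had 0, 0 and 36 reads, the last being 0.551% of the SSB1 reads. These features were chosen after their values were seen, and the strand setting of the counting is not given in the sources used here. Spread in single members was not screened for outlying libraries, since groups of 3 are too small for it.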

How the results depend on the processing

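Of 60 alternative values of the 10 log2 ratios, all 60 kept the sign of the mean. They used scaling to unique 50-mers, to unique 75-mers (added after seeing the data) or to no length, and the omission of each library. Most of this was fixed beforehand. Omission of a library could not reverse the 9 ratios with the same direction in 3 of 3 libraries. Scaling could not change SSB2 over SSB1 or SSE1 over SSE2, whose genes have equal lengths and equal numbers of unique 50-mers and 75-mers. It could hardly change SSA2 over SSA1, SSA4 over SSA3 or SSC1 over KAR2, whose genes are close in both. Unique 50-mers and 75-mers could only enlarge the ratios of SSA1, SSA2 or SSA sums to genes without repeats. Coding lengths differ too little for scaling to no length to reverse these. Only SSB1+SSB2 over SSA1 to SSA4 was open to a reversal. No test could pass 0.05, so the values show direction only. SSB1+SSB2 over SSA1 to SSA4 ranged from 0.06 without replicate 3 to 0.41 without replicate 2. Under TMM and DESeq2 size factors, the 20 alternative CPM values stayed within 1 SD. The TMM factors were 0.980, 0.995 and 1.026, and the means hardly moved under either setting, so this hardly tested the levels. Under both size factors and the omission of each library the 10 members stayed above the median gene, a count that these settings could not lower. Under TMM, DESeq2 size factors and an offset of 5 CPM, 0 members passed 2-fold in any library. The largest deviation, that of SSA3 in replicate 1, moved only from 0.63 to 0.67, 0.66 and 0.63, so these settings hardly tested that count. The share of reads moved to 0.569% among genes with at most 50% repeated 50-mers, a setting that leaves out SSA1 and SSA2 themselves. The composition of the family per unique 50-mer was added after seeing the data. The order changed place for 4 members without replicate 3, 2 without replicate 1 and 6 per unique 75-mer. No paired analysis was possible because the gene identifiers of the strains do not match. Depth limits SSA4 most, with a counting error of 3.58%.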
